A study of Mus musculus with 4 samples.

Results

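Bile acid synthesis enzymes turn cholesterol into bile acids in the hepatocyte. The 9 enzyme genes described here are Cyp7a1, Cyp8b1, Cyp27a1, Cyp7b1, Cyp39a1, Hsd3b7, Akr1d1, Slc27a5 and Baat, out of 34761 gene names on the array, and were chosen by name. They were read by 10 probes on 19 spots, since Slc27a5 has 2 probes and the Cyp27a1 probe is printed 10 times. All 9 were well above background on all 4 arrays.

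RNA came from the livers of male C57BL/6 mice, an inbred laboratory strain, after 0, 5, 10 or 15 weeks on a diet high in fat and sucrose (HFHS). Feeding began at 5 weeks of age, so the livers were taken at 5, 10, 15 and 20 weeks of age. Each time point is 1 array, so no difference between time points has a replicate check and no test was made. The design names 4 mice for each time, and whether their RNA was pooled is not stated. Time on the diet and age increased together, and age-matched mice on another diet are not analysed here, so diet and age cannot be told apart. The time of day at which the livers were taken is not given in the labels.

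The classical pathway begins with Cyp7a1, the rate-limiting enzyme, which adds a hydroxyl group to the sterol ring of cholesterol, and Cyp8b1 adds a further ring hydroxyl that directs the product towards cholic acid. The alternative pathway begins with oxidation of the side chain by Cyp27a1, and the oxysterols that result get their ring hydroxyl from Cyp7b1. Cyp39a1 does the same for the oxysterol that the brain exports to the liver. Cyp27a1 also oxidises the side chain of classical pathway intermediates, so its place in the alternative pathway is a convention. Hsd3b7 and Akr1d1 then modify the ring in both pathways, and Slc27a5 and Baat activate bile acids and conjugate them to an amino acid. Bile acids reaching the liver activate the receptor encoded by Nr1h4, which lowers transcription of Cyp7a1 and Cyp8b1, in part through Nr0b2.

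The probes behind the largest differences, and the pair that read Slc27a5, are shown because each gene's value rests on these letters. Each is a 60-base probe, of which the last 30 bases are printed 5′ to 3′. Capitals mark the first AATAAA, the letters of a polyadenylation signal, where it occurs. In Cyp39a1 another AATAAA overlaps the marked one. Positions are those of the whole probe in build mm9, as the scanner files give them, and where in the exons or UTR they fall was not determined here.
Cyp7a1 (chr4:6193456-6193515, minus strand): gaactgaatgtatccacataccttcccatg
Cyp7b1 (chr3:17972286-17972345, minus strand): tcacaaaacctgtcataaAATAAAgcagtg
Cyp39a1 (chr17:43887735-43887794, plus strand): gtcttaagagatgAATAAAtaaatcaatgg
Slc27a5, brighter probe (chr7:13573701-13573760, minus strand): agtacttagagAATAAActtgaatgtgtat
Slc27a5, dimmer probe (chr7:13573924-13573983, minus strand): gtgcgtgagggttttgatgtggggatcatt
AATAAA was present in 4 of the 10 probes of these enzymes, against 10.1% of all 55681 probes. The longest run of bases that any of the 10 shared with a probe for another gene was 12 to 15 bases.

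Values are the log2 of each spot's processed signal minus the 75th percentile of its array, so 0 is a signal equal to that percentile. Levels of different probes are not set against each other, only the changes of each probe. A gene was called higher or lower where the arrays differed at least 2-fold, which is a log2 difference of 1. The percentage of spots well above background was 44.9%, 44.5%, 44.6% and 48.3% at 0, 5, 10 and 15 weeks, and no spot was saturated. For probes printed repeatedly on an array, the median SD between spots was 0.0633, 0.0733, 0.0659 and 0.0656, which gives a difference between arrays a spot error of 0.09 to 0.10. This covers error between spots and not between animals. At 15 weeks the median measured gene stood at −0.25 against 0 weeks, so a gene's change relative to the median gene is 0.25 above the value printed.

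The classical pathway's first enzyme was higher at 5 and 10 weeks and then lower at 15 weeks. Cyp7a1 read 2.52, 4.15, 4.64 and 1.69 at 0, 5, 10 and 15 weeks. It was highest at 10 weeks and lowest at 15 weeks, below its value before the diet. Against 0 weeks it was 3.1-fold higher at 5 weeks, 4.35-fold higher at 10 weeks and 1.78-fold lower at 15 weeks, and the last did not reach 2-fold. Between 10 and 15 weeks it was 7.73-fold lower, and only 10 of the 17490 genes measured in both had a larger difference downwards. The 15-week spot had 5 of 44 neighbouring spots brighter than on the other arrays, which is not above the limit of 5 used here for a locally bright area.

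Cyp8b1 did not share the 10-week level of Cyp7a1. It read 5.75, 6.38, 5.66 and 4.79 over the same times, highest at 5 weeks and lowest at 15 weeks. Against 0 weeks it was 1.55-fold higher at 5 weeks, differed by −0.08 on the log2 scale at 10 weeks and was 1.95-fold lower at 15 weeks, so it passed 2-fold at no time. From 5 to 15 weeks it was 3.02-fold lower. The change of Cyp7a1 exceeded that of Cyp8b1 by 1.0, 2.20 and 0.13 on the log2 scale at 5, 10 and 15 weeks.

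In the alternative pathway the 3 enzymes went different ways. Cyp7b1 read 4.51, 8.30, 6.68 and 5.28 at 0, 5, 10 and 15 weeks, highest at 5 weeks and lower at each later time. It was 13.8-fold higher than at 0 weeks after 5 weeks and 4.49-fold higher after 10 weeks. Only 8 of 17094 genes had a larger difference upwards at 5 weeks. At 15 weeks it was 1.71-fold higher, under 2-fold, which is 1.02 above the median gene on the log2 scale.

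Cyp39a1 went the opposite way and was lower than at 0 weeks at each later time. It read 5.58, 3.29, 3.32 and 3.47 with the scaling used here. The 3 later arrays then lay close together (0.19 between 5 and 15 weeks), and all lay over 2 log2 units below 0 weeks. It was 4.90-fold, 4.77-fold and 4.30-fold lower at 5, 10 and 15 weeks. With spike-in scaling its differences from 0 weeks were −2.22, −2.32 and −1.6, and 15 weeks lay 0.72 above 10 weeks (0.37 with quantile normalization). The difference between the changes of Cyp7b1 and Cyp39a1, both of which hydroxylate oxysterols, was 6.08 at 5 weeks, 4.42 at 10 weeks and 2.87 at 15 weeks. Of the 16686 genes measured on all 4 arrays, 79 (0.473%) were at least 2-fold lower at all 3 later times, and Cyp39a1 was among them.

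Cyp27a1, the side-chain hydroxylase of mitochondria, differed less, and its repeated spots show how closely an array repeats itself. It read 4.34 (SD 0.043 over 10 spots), 3.88 (SD 0.073 over 10 spots), 3.98 (SD 0.041 over 9 spots) and 3.37 (SD 0.063 over 10 spots) at 0, 5, 10 and 15 weeks. The spots at 0 weeks lay between 4.28 and 4.42, above all spots of the later arrays. Those at 15 weeks lay between 3.21 and 3.43, below all spots of the earlier arrays, and those at 5 and 10 weeks overlapped. With spike-in scaling the 15-week spots overlapped those at 5 and 10 weeks. Cyp27a1 was 1.38-fold, 1.28-fold and 1.97-fold lower than at 0 weeks, so it stayed just inside the 2-fold limit at 15 weeks. Spots of 1 array are not separate animals.

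**Figure D1:**
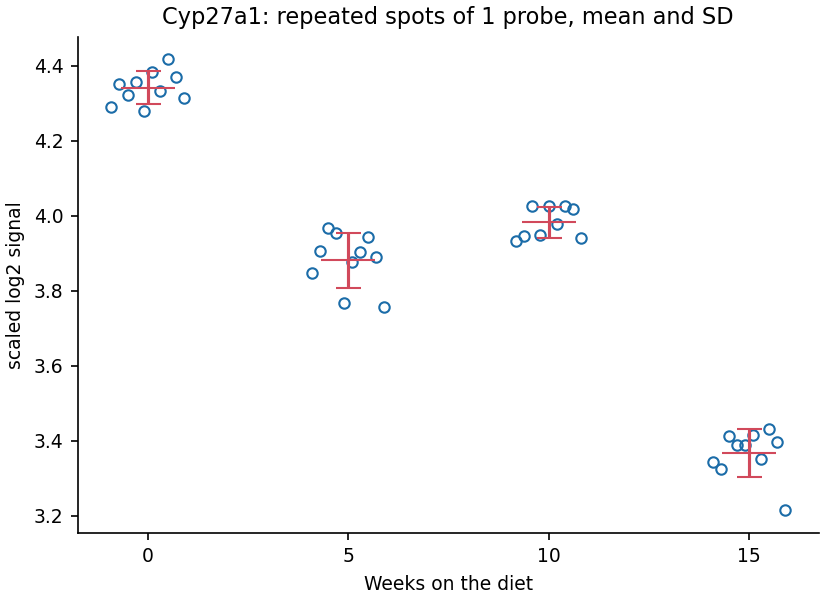
Scaled log2 signal of the repeated Cyp27a1 spots (circles) against weeks on the diet, with the mean and SD over spots of the same array (10 spots, 9 at 10 weeks). With the scaling used here, the 0-week spots (4.28 to 4.42) lie above all others and the 15-week spots (3.21 to 3.43) below all others, while those at 5 and 10 weeks overlap.

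The steps shared by both pathways differed by less than 2-fold from 0 weeks at every time. Hsd3b7, which oxidises the ring hydroxyl of the newly hydroxylated sterol, read 8.78, 8.92, 8.97 and 8.64. Its differences from 0 weeks were 0.15, 0.20 and −0.13, the last of which was above 0 with the 75th percentile of detected probes (0.07), quantile normalization (0.37) and spike-in scaling (0.38), and its 0-week spot had 7 of 48 neighbours brighter than on the other arrays. Akr1d1, the reductase that bends the sterol ring, read 0.36, −0.39, 0.71 and −0.20. It was 1.68-fold lower at 5 weeks, then 2.14-fold higher at 10 than at 5 weeks and 1.88-fold lower at 15 than at 10 weeks.

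The activating and conjugating enzymes were lowest at 15 weeks with the scaling used here, but Slc27a5 was lowest at 5 weeks with quantile normalization (−0.23) and with spike-in scaling (−0.22). Slc27a5, the bile acyl-CoA synthetase, read 10.13, 9.83, 10.05 and 9.41 with its brighter probe and 8.93, 8.54, 8.75 and 8.0 with its dimmer probe. The probes moved in the same direction at each time and gave 1.65-fold and 1.90-fold lower signal at 15 weeks than at 0 weeks. The log2 difference of the brighter probe, −0.72, was −0.08 with quantile normalization and −0.21 with spike-in scaling. The 15-week spot of the dimmer probe had 8 bright neighbours. Baat, which joins activated bile acids to taurine or glycine, read 3.48, 3.22, 3.47 and 2.69 and was 1.73-fold lower at 15 weeks.

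**Figure D2:**
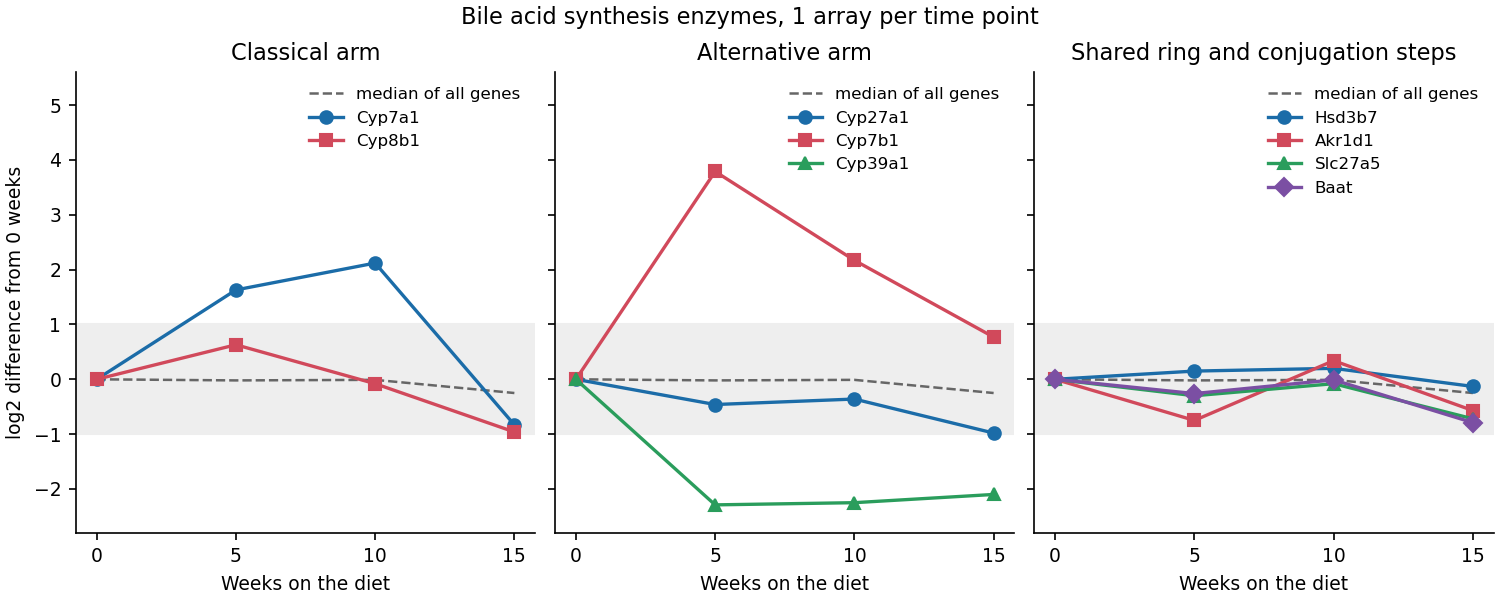
Log2 difference from 0 weeks against weeks on the diet for the classical pathway, the alternative pathway and the shared steps, 1 array per point. The dashed line is the median of all measured genes and the grey band marks differences under 2-fold. Cyp7a1 reaches 2.12 at 10 weeks and −0.83 at 15 weeks, and Cyp7b1 reaches 3.79 at 5 weeks. With the scaling used here Cyp39a1 stays between −2.29 and −2.10 (−1.6 at 15 weeks with spike-in scaling). The shared steps stay within the band.

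The comparison of the pathways depended on which enzymes stood for each pathway. The mean change of Cyp7a1 and Cyp8b1 was 1.13, 1.02 and −0.90 at 5, 10 and 15 weeks, and that of Cyp27a1, Cyp7b1 and Cyp39a1 was 0.34, −0.15 and −0.77. The classical mean exceeded the alternative mean by 0.79 at 5 weeks and 1.17 at 10 weeks, and at 15 weeks it lay 0.13 below it (difference −0.13, spot error 0.08). Without Cyp7b1 the differences were 2.51, 2.32 and 0.64, and without Cyp7a1 they were 0.29, 0.06 and −0.19. Cyp7a1 and Cyp7b1 alone differed by −2.16, −0.05 and −1.60, so the increase over 0 weeks was of like size at 10 weeks, and at 5 and 15 weeks Cyp7b1 stood further up.

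Counted over the 9 enzymes, 2 were higher and 1 was lower by at least 2-fold at 5 weeks, and the same 3 genes (Cyp7a1 and Cyp7b1 higher, Cyp39a1 lower) were called at 10 weeks. Of all measured genes, 2.30% were called higher and 1.57% lower at 5 weeks, and 2.92% and 1.53% at 10 weeks. At 15 weeks none was called higher and Cyp39a1 was called lower, where 5.76% of all genes were called higher and 5.03% lower. Between 5 and 10 weeks Akr1d1 was higher and Cyp7b1 was lower, against 0.953% and 1.13% of all genes. The median change of the 9 was −0.26, −0.01 and −0.79 at 5, 10 and 15 weeks, beside −0.02, −0.01 and −0.25 over all genes.

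With the scaling used here most of the enzymes, like most genes, were lower at 15 than at 10 weeks, and how many other genes were lower depended on the scaling. Of the 9, 8 were lower by any amount at 15 than at 10 weeks, as were 73.6% of all genes. With spike-in scaling 7 of the 9 and 16.3% of all genes were lower, and the median gene was 0.33 higher in place of −0.24. Cyp27a1 then differed by −0.04 and Slc27a5 by −0.07, while Cyp7a1 differed by −2.38. With the scaling used here the exception was Cyp39a1, which was already low and differed by 0.15 (0.72 with spike-in scaling). The median of the 9 was −0.78, against −0.24 over all genes. Cyp7a1 (7.73-fold) and Cyp7b1 (2.63-fold) were lower by at least 2-fold, as were 4.06% of all genes, while 3.95% were higher and none of the 9 was. With quantile normalization 7 of the 9 and 57.7% of all genes were lower. Hsd3b7 differed by 0.22 with that setting and by 0.24 with spike-in scaling.

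**Figure D3:**
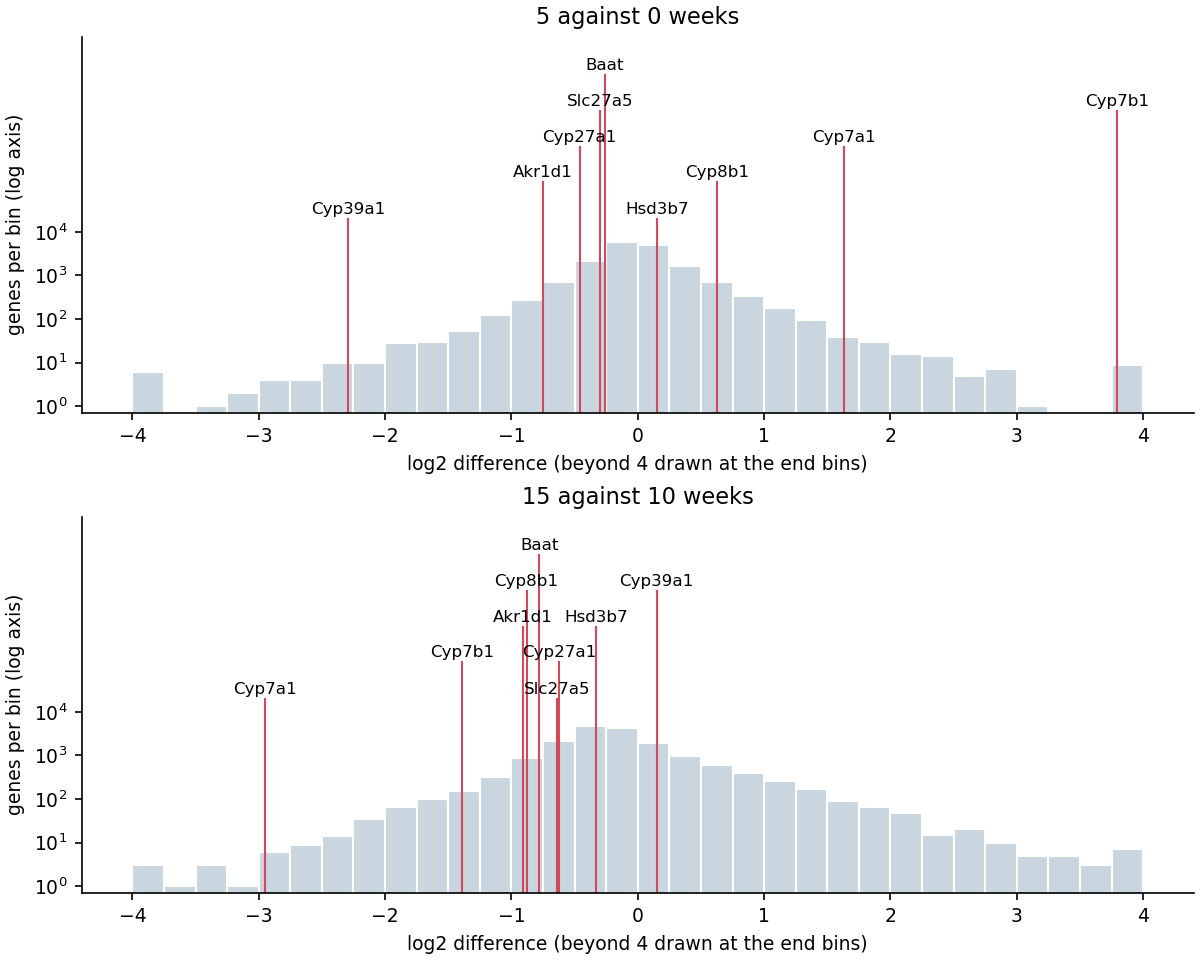
Number of genes (log axis) by log2 difference, for 5 against 0 weeks (upper panel) and 15 against 10 weeks (lower panel), with the 9 enzymes marked by vertical lines whose heights only separate the names. Cyp7b1 (3.79) and Cyp39a1 (−2.29) lie in the tails at 5 weeks, and at 15 against 10 weeks 8 of the 9 lines lie below 0 (7 with quantile normalization or spike-in scaling), with Cyp7a1 at −2.95.

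Whether hepatocyte transcripts as a group were lower on the 15-week array depended on the scaling. All 14 hepatocyte markers on the array were well above background at each time, with a mean level of 9.88, 9.69, 9.67 and 9.04, and their median difference was −0.57 between 10 and 15 weeks, with all 14 below 0 and 1 called lower (Hpd, −1.03). With quantile normalization that median was −0.06, with 8 of 14 below 0, and with spike-in scaling it was 0.00, with 7 of 14 below 0. All 12 macrophage markers were above background at each time, with a mean level of 1.19, 2.35, 2.56 and 3.68. Of these, 7, 10 and 10 were called higher at 5, 10 and 15 weeks, beside 2.30%, 2.92% and 5.76% of all genes. The 9 stellate cell markers, all above background, had a mean level of 1.79, 1.57, 0.69 and 2.56, and 6 were called higher at 15 than at 10 weeks. Between those arrays 3.95% of all genes were called higher and 4.06% lower. Of the 9 cholangiocyte markers, 8 were above background throughout and Cftr was never above it. The mean level of the 9, Cftr included, was −0.67, −0.86, −1.77 and −0.54, and 6 of 8 were called higher at 15 than at 10 weeks. The 5-week mean includes Krt7, which differed by 4.05 from 0 weeks on a spot area with up to 14 bright neighbours. Sox9 had up to 19 bright neighbours. None of 7 endothelial markers was called in these comparisons. In whole liver RNA, fewer cells of a type and less RNA per cell cannot be told apart, and the part of these markers' changes in the lower enzyme values at 15 weeks was not tested.

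**Figure D4:**
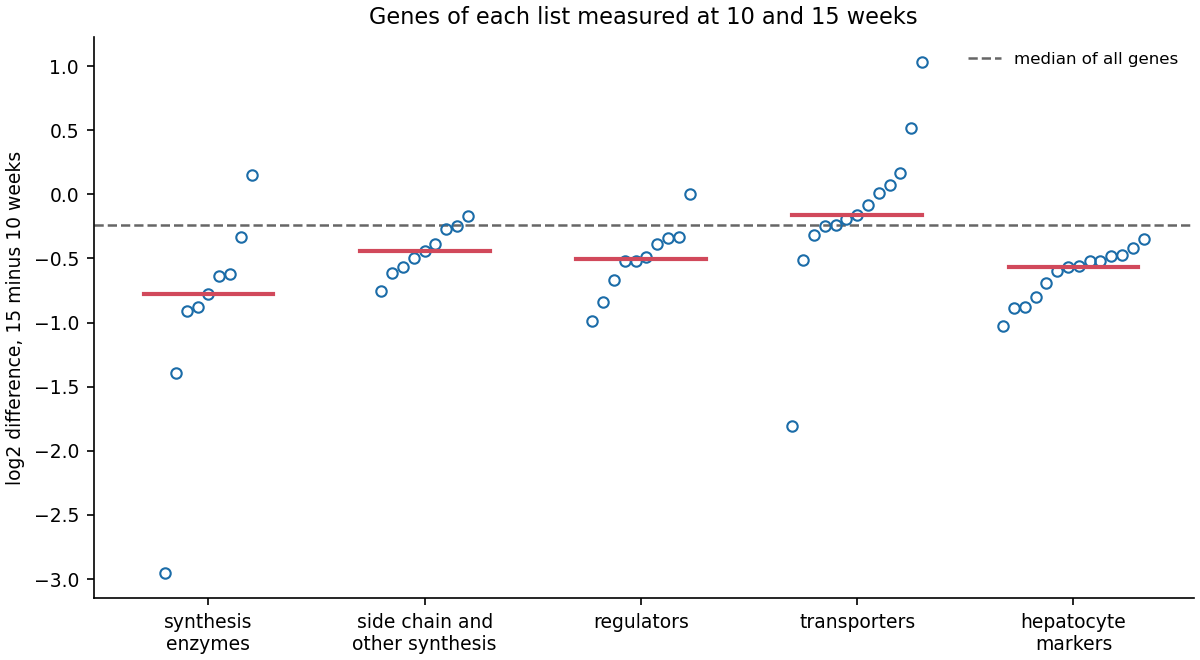
Log2 difference between 15 and 10 weeks for the genes measured on both arrays in 5 lists, with each list's median (red bar) and the median of all genes (dashed line, −0.24). With the scaling used here the medians are −0.78 for the synthesis enzymes, −0.44 for side chain and other synthesis, −0.50 for regulators, −0.16 for transporters and −0.57 for hepatocyte markers, which spike-in scaling moves to 0.00.

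Other synthesis genes differed little. Of 10 genes for peroxisomal shortening of the side chain and for side routes, 9 were measured at each time and none was called against 0 weeks, with medians of 0.03, −0.09 and −0.63 at 5, 10 and 15 weeks. Acox2, the peroxisomal oxidase of bile acid intermediates, differed by −0.45, −0.47 and −0.64. Cyp2c70, which makes the muricholic acids of the mouse, differed by −0.40, −0.59 and −0.85. Ch25h, which makes another oxysterol in macrophages and other cells, was above background only at 15 weeks, where it was at least 6.67-fold higher than at 0 weeks.

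The regulators of the pathway were within 2-fold at 5 and 10 weeks. All 10 were measured, none was called at those times, and their median differences were −0.01 and −0.02. At 15 weeks the median was −0.49 and Klb, the co-receptor for the intestinal hormone that represses Cyp7a1, was lower (−1.15, on a spot area with up to 9 bright neighbours). With spike-in scaling the median gene at 15 weeks was 0.26 in place of −0.25, and every gene shifts by that same amount. The 15-week values of the regulators and the call of Klb therefore depend on the scaling. Nr1h4, the bile acid receptor, differed by 0.24, 0.09 and −0.30, and Nr0b2, a repressor that it induces, by −0.29, −0.06 and −0.58. Fgfr4, the receptor that pairs with Klb, differed by −0.41, 0.12 and −0.21. Hnf4a, a hepatocyte factor that activates Cyp7a1 and Cyp8b1, differed by −0.32, −0.16 and −0.83. Nr5a2, which encodes LRH-1, differed by 0.06, 0.11 and −0.40 with its brighter probe and by −0.27, −0.36 and −0.74 with the other.

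Promoter sequence was matched for 4 of the 9 enzymes (Cyp8b1, Cyp27a1, Akr1d1 and Hsd3b7) in the RefSeq table of build GRCm38.p6. The 250 bases before the start of Cyp8b1 (chr9:121916306-121916555, minus strand) are shown because Hnf4a and Nr5a2, whose levels are given above, are known activators of this gene. Capitals mark the 15 bases from −67 to −53 that hold an HNF4 motif (CAAAGTCCA) and an LRH-1 motif (CAAGGNCA), which overlap by 2 bases.
Cyp8b1: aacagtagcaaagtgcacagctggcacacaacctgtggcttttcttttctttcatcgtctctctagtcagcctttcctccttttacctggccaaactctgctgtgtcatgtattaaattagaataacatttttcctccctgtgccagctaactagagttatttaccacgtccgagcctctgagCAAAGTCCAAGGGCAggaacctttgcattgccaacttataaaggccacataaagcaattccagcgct
Both strands were searched. The HNF4 letters occurred in 0.384% and the LRH-1 letters in 5.53% of 32851 promoter windows, and neither occurred in the windows of the other 3 enzymes. A match describes the letters and is not evidence of binding.

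Among transporters, the main uptake carrier and the bile salt export pump differed little from 0 weeks with the probes used here. Slc10a1, the main uptake carrier of hepatocytes, differed by 0.00, −0.14 and −0.08 with its brighter probe, although its other probe gave −1.17 at 15 weeks. Abcb11, the canalicular bile salt export pump, differed by −0.38, −0.04 and −0.20. Slco1a4, a basolateral organic anion carrier, was lower at all 3 times (−2.37, −1.61 and −1.09). Slco1a1, another organic anion carrier, differed by 0.99, 0.93 and −0.88, each just under 2-fold. Slc51b, part of the basolateral exporter, was above background at 0 weeks and not at 5 weeks, and was at least 4.66-fold lower there. Of 12, 13 and 13 measured transporters, 1, 2 and 1 were called lower at 5, 10 and 15 weeks and none higher. The shares of all genes called lower were 1.57%, 1.53% and 5.03%. Between 10 and 15 weeks 1 of 13 was called lower (Slco1a1, 3.51-fold) and 1 higher (Slc51b, 2.04-fold), beside 4.06% and 3.95% of all genes.

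Genes that supply or sense cholesterol included some that were higher. Sqle, an early enzyme of sterol synthesis, differed by 2.52, 1.85 and 1.91 at 5, 10 and 15 weeks. Stard4, a cholesterol carrier, differed by 1.15, 1.25 and 0.18. In this list 2 of 6, 3 of 7 and 1 of 8 measured genes were called higher and none lower. Of all genes, 2.30%, 2.92% and 5.76% were called higher. One of the calls at 10 weeks was Acat2 (1.01), just past the 2-fold limit.

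Cyp7a1 transcript is known to vary over the day, and some clock genes were likewise higher at 5 and 10 weeks than at 0 and 15 weeks. Dbp, a clock output factor, differed by 2.02, 2.39 and 0.43 from 0 weeks, and Nr1d1, a repressor of the clock, by 1.58, 1.3 and 0.28. Arntl, the clock activator of opposite phase, differed by −1.36, −1.63 and −0.42. In the list of 10 clock genes that holds Dbp and Nr1d1, 7 were measured. Their median differences were 0.35, 0.66 and −0.17, and −0.92 between 10 and 15 weeks. The hour at which each listed gene peaks was not checked here, and the genes need not share it. Dbp and Nr1d1 were the only 2 of the 7 called higher at 5 and 10 weeks, beside 2.30% and 2.92% of all genes. The others were Tef (0.26, 0.66 and −0.59), Hlf (0.09, 0.51 and −0.41), Nr1d2 (0.45, 0.62 and 0.08) and Per2 (0.35, 0.69 and −0.17). Per1 was lower at all 3 times with its brighter probe (−0.35, −0.25 and −0.43), while its other probe gave −1.07, 0.52 and −1.39. The values of Nr1d2 are also those of its brighter probe, and its other probe gave −0.26, 0.63 and −1.75. The mean level of the 10 was 0.21, 0.80, 1.26 and −0.03, and Per3 and Bhlhe41 were never above background. In the list of 5 clock genes that holds Arntl, 3 were measured, with median differences of −0.51, −0.10 and −0.05. Clock (0.04, −0.10 and −0.05) and Nfil3 (−0.51, 0.09 and −0.04) did not follow Arntl, and Npas2 and Cry1 were never above background. The mean level of the 5 was −0.78, −1.08, −1.35 and −0.78. The part of sampling time in the Cyp7a1 values was not tested.

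Cyp7b1 is known to be higher in male than in female mouse liver and Cyp39a1 higher in females. Some other genes with such a sex bias, but not all, moved with them. Hsd3b5, a male-biased steroid dehydrogenase, differed by 4.27, 4.15 and 1.41, and Elovl3, a male-biased fatty acid elongase, by 2.36, 2.09 and 1.21. Susd4 (2.26, 2.38 and 1.01) and C6, a complement component (1.96, 1.44 and 1.06), were also called at all 3 times, and Nudt7, a peroxisomal nucleotide hydrolase (1.80, 1.31 and −0.04), at the earlier times. All 10 male-biased genes were above background on every array, with a mean level of 5.22, 6.75, 6.55 and 5.38. Of these 10, 6, 5 and 4 were called higher and 0, 0 and 2 lower at 5, 10 and 15 weeks. The 2 lower genes were Cyp2d9 (−0.01, −0.18 and −1.24) and Cyp2u1 (0.05, −0.14 and −1.29). The probes of Cyp2u1 ranged from −1.29 to −0.14 at 15 weeks. The median differences of the 10 were 1.43, 1.12 and 0.17. The shares over all genes were 2.30%, 2.92% and 5.76% higher and 1.57%, 1.53% and 5.03% lower.

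Of the female-biased genes measured, 3 of 5, 5 of 6 and 5 of 6 were called lower at 5, 10 and 15 weeks and none higher. Over all genes 1.57%, 1.53% and 5.03% were called lower. Cyp2a4, a bright member that can share signal with its close relatives, differed by −1.18, 0.46 and −0.35. Cyp3a16, whose probe can share signal with other Cyp3a genes, differed by −3.83, −2.26 and −1.57. Cyp2b9, which can share signal with other Cyp2b genes, was at least 13.1-fold and 14.4-fold lower at 5 and 10 weeks and differed by −1.88 at 15 weeks. Sult1e1, an oestrogen sulphotransferase (−0.39, −2.8 and −2.50), and Cyp17a1, a steroid hydroxylase (−0.25, −1.43 and −1.05), were called at 10 and 15 weeks. The mean level of the 10 female-biased genes on the array was 0.90, −1.27, −0.97 and −0.95, and 3 of them were never above background. The mice were 5 weeks old at 0 weeks on the diet and 10 weeks old at 5 weeks, and the part of maturation in the Cyp7b1 and Cyp39a1 values was not tested.

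**Figure D5:**
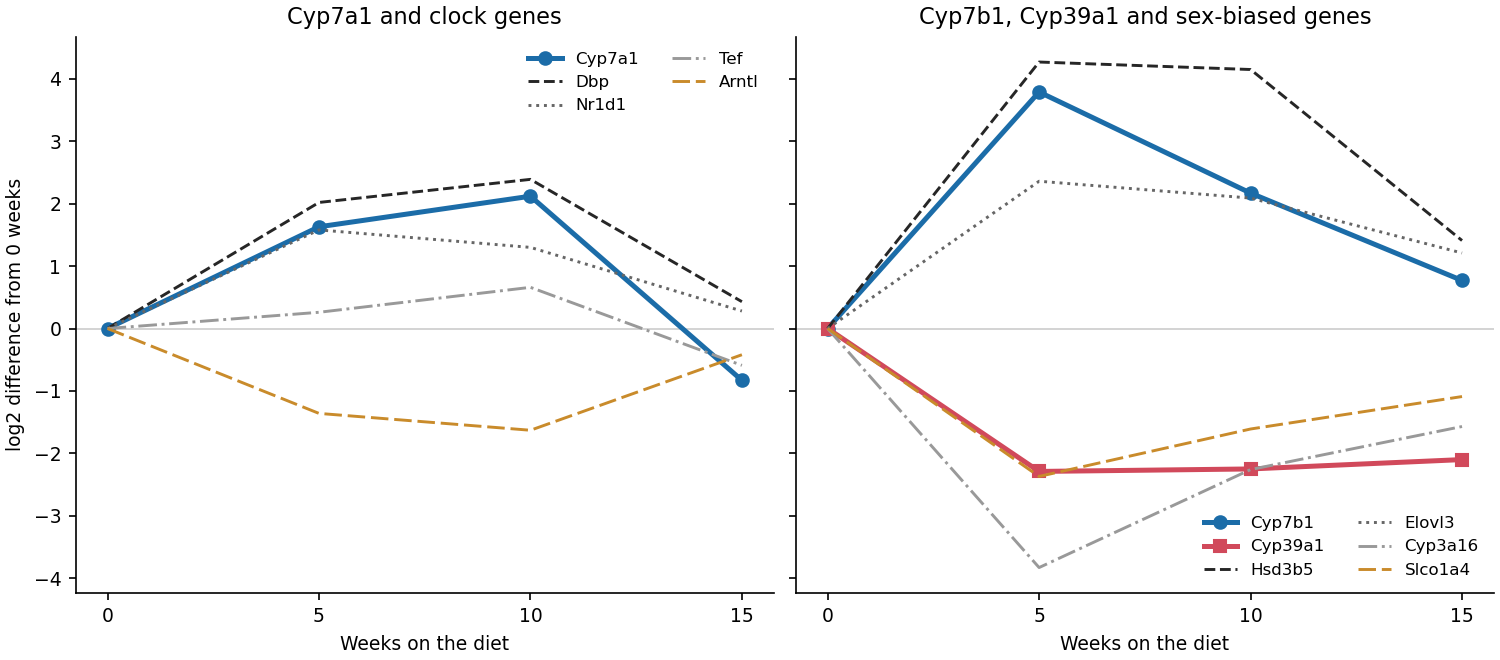
Log2 difference from 0 weeks against weeks on the diet, 1 array per point. The left panel sets Cyp7a1 beside some of the clock genes and the right panel sets Cyp7b1 and Cyp39a1 beside some of the genes of known sex bias. Cyp7a1 (1.63, 2.12 and −0.83) lies near Dbp (2.02, 2.39 and 0.43) at 5 and 10 weeks, Hsd3b5 (4.27, 4.15 and 1.41) and Elovl3 lie above 0 with Cyp7b1, and Cyp3a16 and Slco1a4 lie below 0 with Cyp39a1.

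The genes with the most similar time courses were found by the Euclidean distance over the 3 log2 differences from 0 weeks, among 12690 genes with an official symbol measured on all 4 arrays. Nearest to Cyp7a1 were Tff3, a mucosal trefoil peptide (1.73, 1.97 and −0.85, distance 0.18), Slc22a7, an organic anion carrier (1.87, 1.88 and −0.55, distance 0.44), and Pax2, a developmental transcription factor (1.81, 1.61 and −1.15, distance 0.63). Cyp7b1 had no gene as close. Its nearest were Saa1 (distance 1.31) and Saa2 (1.32), acute phase apolipoproteins that can share signal, and Fabp5, a fatty acid carrier (1.36).

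A shape shared by Cyp7a1 and Cyp7b1 was counted after their values were seen. Of the 16686 genes measured on all 4 arrays, 208 (1.25%) were at least 2-fold higher at both 5 and 10 weeks. Of these, 44 (0.264% of all) were then at least 2-fold lower at 15 than at 10 weeks, and they included Cyp7a1, Cyp7b1, Dbp, Nr1d1, Hsd3b5, Nudt7, Slc22a7 and Stard4. In 23 of the 44, Cyp7a1 and Nudt7 among them, the 15-week value also lay below that at 0 weeks.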

How the data were processed

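RNA from mouse liver was amplified, labelled with Cy3 and hybridised to 1-colour Agilent arrays, 1 per time point, per the labels' protocols. The scanner files hold, per the file headers, a processed intensity for each spot from Agilent Feature Extraction 10.7.3.1, background-subtracted and on a linear scale, with other columns for names, positions, probe letters and marks. The authors also deposited a value table, which equals the processed intensity divided by each array's median. Processed signals were divided by the 75th percentile of each array's non-control spots and taken to log2. Spots marked uneven or as outliers were left out (1 enzyme spot, of Cyp27a1 at 10 weeks), spots of a probe were averaged, and a gene was read by its probe with the highest mean. Genes were compared where both arrays were well above background. For a gene above it on 1 array, the bound sets the brighter value against the larger of the dim value and the lowest value above background on that array. A spot was called locally bright where more than 5 spots within 3 rows and columns exceeded their own median on the other arrays by over 1 log2 unit.

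Probes were named through RefSeq (GRCm38.p6), where 27509 matched on accession, 3549 on a current and 404 on a former symbol, and 24219 retained the name in the file. The enzymes and lists were chosen with earlier results of these data known. Genes named from a list were at least 2-fold different at 2 or more times, or were a few set with the list, and others were named as regulators, carriers or markers after their values were seen. The number of arrays limits the precision. Alternatives were 4 scalings, normexp (limma 3.58.1, R 4.3.3, offset 50), the mean of a gene's probes, no background filter, a 1.5-fold threshold, locally bright spots left out and the deposited table. Python 3.11.15 and pandas 2.3.3 were used. Protein sequences were not used here. Values of a few single list genes are not reported here.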

Additional observations from a re-analysis of the deposited data

How the results depend on the processing

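No paired analysis was possible because each time point has 1 array. The excess of the classical over the alternative mean ranged from 0.76 to 0.79 at 5 weeks, from 1.11 to 1.17 at 10 weeks and from −0.18 to −0.13 at 15 weeks over all alternatives. A scaling that shifts all values of an array equally cancels in this excess, so the array median, percentile, spike-in and deposited settings could not move it. The differing values came from quantile normalization (0.77, 1.15 and −0.18) and normexp (0.76, 1.11 and −0.13). The number of enzymes called at 15 against 0 weeks was 1, and 2 with quantile normalization, 2 with spike-in scaling and 7 at 1.5-fold. At 15 against 10 weeks it was 2, and 1 with spike-in scaling and 7 at 1.5-fold. At 10 against 5 weeks it was 2, and 1 with spike-in scaling, 1 with normexp and 3 at 1.5-fold. At 5 against 0 weeks it was 3, and 5 at 1.5-fold. The added call at 15 against 0 weeks was Cyp7b1 (1.10 with quantile normalization, 1.28 with spike-in scaling), and the lost calls were Akr1d1 at 10 against 5 weeks (0.96 with spike-in scaling, 0.81 with normexp) and Cyp7b1 at 15 against 10 weeks (−0.82 with spike-in scaling).

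Of 447 single-enzyme values under the alternatives, 414 kept their direction and side of the threshold, 16 gained a call (14 of them at 1.5-fold), 3 lost it and 14 uncalled values changed sign. Part of the 414 could not move. All 9 enzymes were above background on all arrays, so dropping the filter changed none of them. Only Slc27a5 has 2 probes, so averaging probes could change no other enzyme. The deposited table repeats the array median values. Hsd3b7 had no value against 0 weeks with locally bright spots left out. The median gene at 15 against 0 weeks was −0.25, and 0.26 under spike-in scaling, −0.05 under the percentile of detected probes, −0.08 under quantile normalization, −0.18 under the array median and −0.19 under normexp. The shares of genes higher and lower there, 5.76% and 5.03%, became 7.63% and 3.08% with the percentile of detected probes and 11.5% and 1.81% with spike-in scaling. At 15 against 10 weeks, 3.95% and 4.06% became 5.41% and 2.54% with the array median, 5.61% and 2.42% with the percentile of detected probes, 4.48% and 3.02% with quantile normalization and 11.1% and 1.12% with spike-in scaling. At 10 against 0 weeks, 2.92% and 1.53% became 2.36% and 1.98% with the array median. With normexp the shares were 0.895% and 0.72% at 5 weeks, 1.24% and 0.712% at 10 weeks and 3.37% and 2.51% at 15 weeks against 0 weeks. With no background filter they were 5.56% and 4.39%, 6.42% and 4.48%, and 6.81% and 8.56%. The causes were not tested.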
